A study of Mus musculus with 4 samples.

Results

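The heat shock chaperones described here were 10 genes chosen by name: Hspa1a, Hspa1b, Hspa8, Dnajb1, Dnaja1, Hsph1, Hsp90aa1, Hsp90ab1, Hspd1 and Hspe1. Their entries were taken from a pair of single-cell marker tables that together named 3488 genes. In these tables a listing pairs a gene with a cluster in which its average level was above that in all other cells. Each listing also gave a share of cells for the gene inside the cluster and outside it, which by the usual meaning of these columns is the share with any RNA of the gene. The 10 genes held 21 listings among the 4422 of the cell type table, where 9 of them were named, and 19 among the 3745 of the ILC2 subcluster table, where all 10 were named.

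The cells came from the liver and lung of wild-type male BALB/c mice aged 8 weeks. The mice had been injected intraperitoneally once a day for 5 days with either PBS or recombinant IL-33 (rIL-33, 0.5 µg), an alarmin that activates group 2 innate lymphoid cells (ILC2s). Each organ and treatment formed a group, which gave 4 groups (PBS lung, rIL-33 lung, PBS liver, rIL-33 liver) with 1 single-cell RNA library in each, made from tissue pooled over several animals. The sorted cells carried CD127, Thy1 and ST2 and were gated to lack lineage markers, among them CD3e and TCRb. Both tables pool the 4 libraries, so no value below compares PBS with rIL-33 or liver with lung, no value has a replicate error, and a cluster set against the remaining cells is a description and not a test. The tables give neither cell numbers nor depth, so no interval was computed.

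The shares in the cell type table could not be read as detection of RNA in all cases. Cd3e, a T cell receptor component, had a share of 83.5% over all sorted cells there and of 5.8% over the cells of the ILC2 table, although the cell type named ILC2 made up 43.2% of the sorted cells. The scale of the cell type table is therefore not known. Its percentages are given as deposited, for comparison within that table only, and those of the ILC2 table as the share of cells in which a gene was detected. Il1rl1, which encodes ST2, stood at 90.2% in the cell type ILC2 and at 47.7% in all other cells. In the ILC2 table Cd3e was listed for subcluster 5 alone, at 32.0% of its cells against 4.7% of other ILC2s.

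Chaperones bind unfolded or partly folded proteins and keep them from aggregating. HSP70 proteins (Hspa1a, Hspa1b and Hspa8) bind exposed stretches of a client in cycles of ATP hydrolysis, which HSP40 proteins (Dnajb1, Dnaja1) start and HSP110 (Hsph1) resets by exchanging the nucleotide. HSP90 (Hsp90aa1, Hsp90ab1) receives clients from HSP70, many of them kinases and steroid receptors, and HSP60 with its lid HSP10 (Hspd1, Hspe1) folds proteins inside mitochondria. Hspa1a, Hspa1b, Dnajb1, Hsph1 and Hsp90aa1 are strongly induced by heat through the factor HSF1, which binds inverted repeats of a short unit called heat shock elements, whereas Hspa8 and Hsp90ab1 are abundant in unstressed cells. Some of the inducible genes are also known to rise when tissue is dissociated into single cells.

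The promoters of the inducible HSP70 pair are shown first because the genes share most of their coding sequence. Hspa1a (chr17:34969190-34972156, minus strand, GRCm38) and Hspa1b (chr17:34956436-34959238, minus strand) are near-identical neighbours. The 130 bases just before each start site, from RefSeq on GRCm38.p6, lie in no annotated exon of the 10 genes, at chr17:34972157-34972286 and chr17:34959239-34959368. They shared 129 of 130 bases. Capitals mark GAANNTTC, a head-to-head pair of heat shock element units, where N is any base.

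Hspa1a: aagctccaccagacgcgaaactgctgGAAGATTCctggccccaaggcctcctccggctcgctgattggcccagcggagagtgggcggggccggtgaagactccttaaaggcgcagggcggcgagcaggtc

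Hspa1b: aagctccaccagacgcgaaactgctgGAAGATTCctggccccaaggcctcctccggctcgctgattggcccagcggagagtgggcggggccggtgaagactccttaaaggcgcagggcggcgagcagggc

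The pair began at position -104 from the start site in both genes. Their coding sequences, in GENCODE M21 transcripts, were 99.5% identical, whereas the sequences after the stop codon were 51.4% identical. Of all words of 50 bases in the Hspa1a transcript 58.8% also occurred in that of Hspa1b, but none of the 451 words in its last 500 bases did. Reads that fall in a shared word cannot be told apart, whereas reads from the last 500 bases can. Values of the pair are given for each gene, and counts also with the pair as 1 gene.

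Of the 10 genes 7 had a RefSeq promoter window, which runs from 250 bases before to 50 bases after a start site, and some had several. Hspa8, Hsp90aa1 and Hsp90ab1 had none in the table used. GAANNTTC or the tail-to-tail pair TTCNNGAA, both of which read the same on the other strand, was found in 7 of the 12 windows of these genes, against 15.1% of all 32851 windows. The 7 include the near-identical pair Hspa1a and Hspa1b, both windows of Hsph1, which overlap, and a run that Hspd1 and Hspe1 share. Both forms can overlap in a run of units. The shorter stretches that follow, of at most 30 bases, lie in annotated exons. That of Dnaja1 (chr4:40722333-40722362, plus strand) and that of Hsph1 (chr5:149636352-149636376, minus strand) lie in exons of the same gene, and that of Hspe1 (chr1:55088053-55088082, plus strand) in an exon of Hspd1. Capitals mark either pair.

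Dnaja1: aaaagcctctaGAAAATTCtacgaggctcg

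Hspe1: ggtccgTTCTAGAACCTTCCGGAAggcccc

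Hsph1: agaatctTTCTCGAAggctcgagaa

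The Hspe1 stretch held a run of 4 alternating units, which occurred in 8 of the 32851 windows (0.0244%). Hspd1 (chr1:55077835-55088243, minus strand) and Hspe1 (chr1:55088132-55091307, plus strand) overlap at their 5′ ends, and the same run stood in the second window of Hspd1. Hsph1 had a further run of 3 units after its start site (0.603% of all windows held a run of 3 in either order). The windows of Dnajb1 held neither pair, which says only that these letters are not in these windows.

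**Figure D1:**
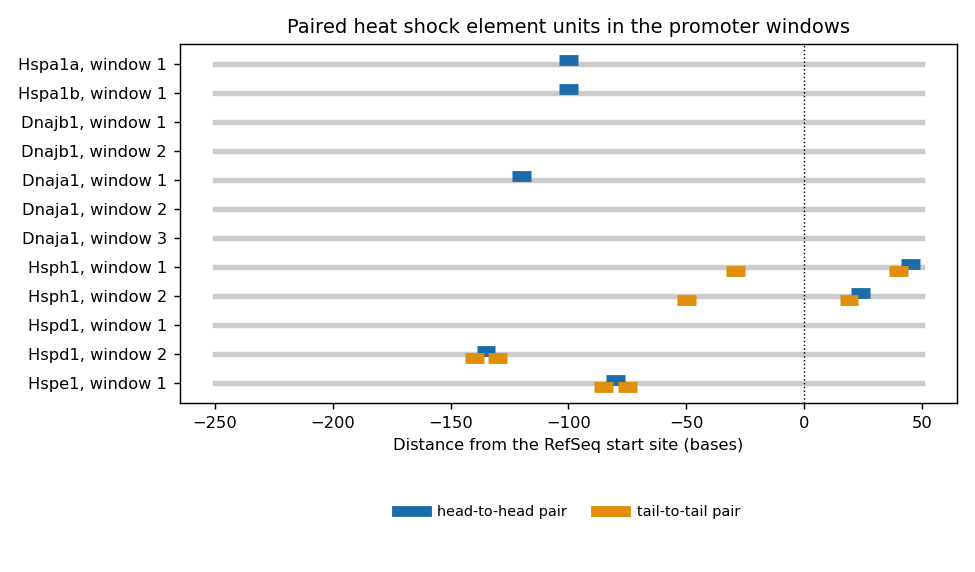
Position of paired heat shock element units in each RefSeq promoter window of 7 chaperone genes, in bases from the start site, with each window drawn as a grey line. Hspa1a and Hspa1b carry a head-to-head pair at the same position, and the window of Hspe1 and the second window of Hspd1 hold the same run of 4 units seen from opposite strands.

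Within ILC2s, the 19 chaperone listings fell into 4 of the 10 subclusters. Subcluster 4, the proliferating cells, listed Hspa8, Hsph1, both HSP90 genes and the mitochondrial pair. Subcluster 7 listed Hspa8, Dnaja1, both HSP90 genes and Hspd1. Subcluster 2 listed only Hspa1a, Hspa1b and Dnajb1 of the 10, and subcluster 5 listed these 3 with Dnaja1 and Hsph1. Subclusters 0, 1, 3, 6, 8 and 9 listed none of the 10. In that order they listed 300, 363, 237, 190, 253 and 199 of the 2629 genes of the table. At such shares few of the 10 would be listed in any case. The subclusters differed in how many genes they listed. Subcluster 2 listed 4.98% of the 2629 genes of its table and 3 of the 10 chaperones, subcluster 4 listed 30.5% and 6, subcluster 5 listed 38.0% and 5, and subcluster 7 listed 10.3% and 5. A gene that is not listed for a subcluster did not pass the authors' criteria there, and no value is given for it.

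The size of each subcluster follows from the shares inside and outside it, because both must add up to the same share over all ILC2s for every listing of a gene. Solved in this way over 768 genes, subcluster 2 held 18.3% of ILC2s, subcluster 4 held 9.23%, subcluster 5 held 3.87% and subcluster 7 held 1.42%. With these sizes, the share of a chaperone over all ILC2s differed by at most 0.06 percentage points between its listings.

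**Figure D2:**
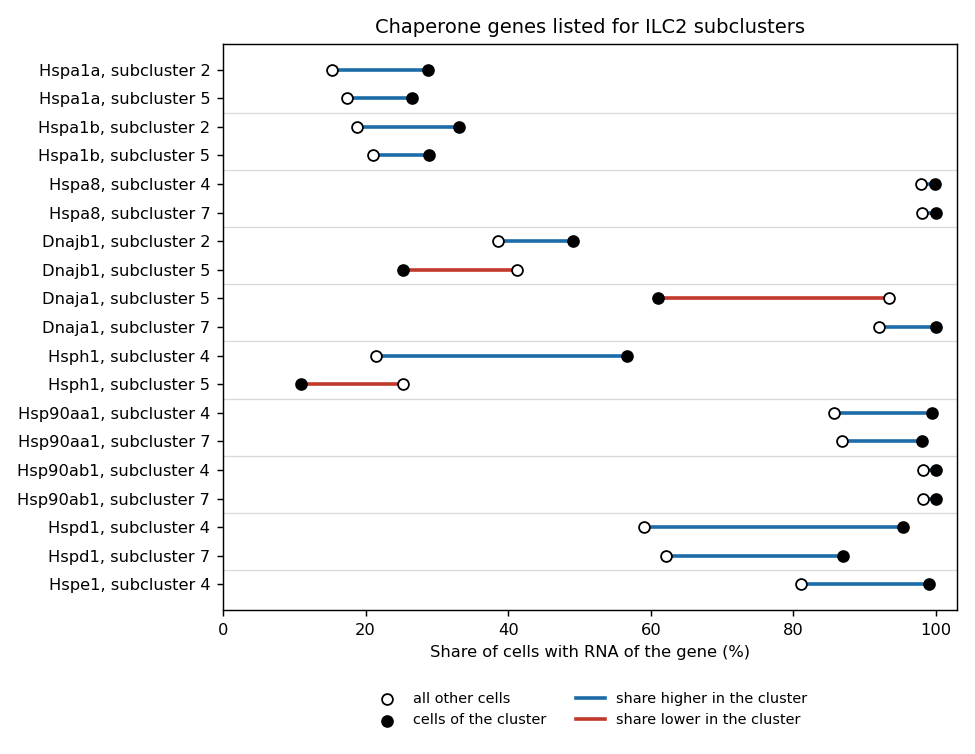
Share of cells with RNA of each chaperone gene in percent, for its listings among ILC2 subclusters, inside the subcluster (filled) and in all other ILC2s (open). Hspa1a and Hspa1b were higher in subclusters 2 and 5, whereas Dnajb1, Dnaja1 and Hsph1 were lower in subcluster 5.

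The inducible HSP70 genes were detected in a minority of the cells of both subclusters that listed them. Hspa1a was found in 28.7% of subcluster 2 and 26.5% of subcluster 5, against 14.7% of the ILC2s of the other 8 subclusters together. Hspa1b was found in 33.1% of subcluster 2 and 28.9% of subcluster 5, against 18.3% of the others. In both genes the share of cells thus fell from subcluster 2 to subcluster 5 to the remaining ILC2s, and the order of their average levels was not examined. Subcluster 2 held 29.6% of all ILC2s with Hspa1a RNA and 28.3% of those with Hspa1b RNA, compared with its 18.3% of cells. In that subcluster the differences of Hspa1a (13.4 percentage points) and Hspa1b (14.3) lay below the median of its 131 listed genes, 16.1.

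Hspa8, the constitutive HSP70 (chr9:40800984-40810087, plus strand), was near its ceiling in all ILC2s. It was detected in 99.8% of subcluster 4, in 100% of subcluster 7 and in 97.8% of the remaining ILC2s. With so few cells lacking it, the share leaves little room to show a difference, and the same held for Hsp90ab1.

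The HSP40 genes differed from each other. Dnajb1 (chr8:83608193-83612653, plus strand), a partner of inducible HSP70, was detected in 49.1% of subcluster 2, in 39.3% of the subclusters that did not list it and in 25.2% of subcluster 5. Dnaja1 (chr4:40722150-40737149, plus strand), which is more widely expressed, was detected in 100% of subcluster 7, in 93.3% of the subclusters that did not list it and in 61.0% of subcluster 5. The share of Dnajb1 moved in the direction of the inducible HSP70 pair in subcluster 2 only. In subcluster 5 its share was 16.0 percentage points below that of other ILC2s, where those of Hspa1a and Hspa1b were 9.1 and 7.8 above.

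Hsph1 (chr5:149614287-149636376, minus strand) had the lowest share in subcluster 5 and the widest range. It was detected in 56.6% of subcluster 4, in 21.9% of the subclusters that did not list it and in 11.0% of subcluster 5. Subcluster 4 held 21.2% of all ILC2s with Hsph1 RNA, compared with its 9.23% of cells.

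Of the HSP90 genes, Hsp90aa1 (chr12:110690605-110702728, minus strand), the inducible form, was detected in 99.5% of subcluster 4, in 98.0% of subcluster 7 and in 85.5% of the remaining ILC2s. Hsp90ab1 (chr17:45567775-45573271, minus strand), the constitutive form, was detected in 100% of both subclusters and in 98.0% of the rest. The room left below the ceiling differed between these genes, and their differences in share cannot be set against each other as differences in level.

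Of the mitochondrial pair, both genes were listed for subcluster 4 and Hspd1 also for subcluster 7. Hspd1 was detected in 95.4% of subcluster 4, in 87.0% of subcluster 7 and in 58.7% of the remaining ILC2s. Hspe1 was detected in 99.0% of subcluster 4 and in 81.1% of other ILC2s, and was listed for no other subcluster. The difference of Hspd1 in subcluster 4, 36.3 percentage points, was the largest among the 19 chaperone listings, and held place 292 among the 802 genes listed for that subcluster, whose median was 34.1. That of Hspe1, 17.9 points, held place 701.

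Subcluster 5 was unlike the other 3 in the direction of its shares. Of its 1000 listed genes, 978 were detected in a smaller share of its cells than of other ILC2s. A listing requires a higher average level, so in these genes the cells with RNA were fewer and the average was nevertheless higher. Dnajb1, Dnaja1 and Hsph1 were among these 978. Hspa1a and Hspa1b were among the 22 genes with a higher share, and held places 12 and 13 of 1000 in order of the difference. A lower share inside was found in 29.4% of all listings for ILC2 subclusters, and in 3 of the 19 chaperone listings, all of them in subcluster 5. T cell genes were also among those with a higher share there, with Cd3e at 32.0% against 4.7%, Cd28 at 26.8% against 4.7% and Trdc at 25.6% against 7.0%. Subcluster 5 listed 5 of the 7 T cell markers in the table, compared with 38.0% of all genes. Of these 5 genes 4 had a higher share, and Trbc1 had a lower one, 45.0% against 81.0%. Subcluster 7 listed Tcrg-C1 at 42.0% against 25.8% and Trbc1 at 86.5% against 79.5%, and subcluster 2 listed Trbc2 at 87.2% against 80.6%. Among subclusters without a listed chaperone, subcluster 6 listed 3 T cell markers and subcluster 1 listed 1, all with a higher share. None of the 11 ILC2 markers in the table was listed for subcluster 5. The ILC2 table named 0 of the 8 myeloid and basophil markers and 1 of the 8 B cell markers for any subcluster. Their absence from subclusters 2, 4, 5 and 7 therefore says little about such cells. Of the NK and ILC1 markers, Gzma was listed for subcluster 4 at 25.8% against 9.7%. The endothelial gene Pecam1 was listed for subcluster 5 at 8.6% of its cells, a lower share than in other ILC2s. The sort had gated out cells with surface CD3e or TCRb, and per the study cells that expressed Cd3 were removed before the ILC2s were clustered again. Whether T cell genes and chaperones were found in the same cells was not tested.

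**Figure D3:**
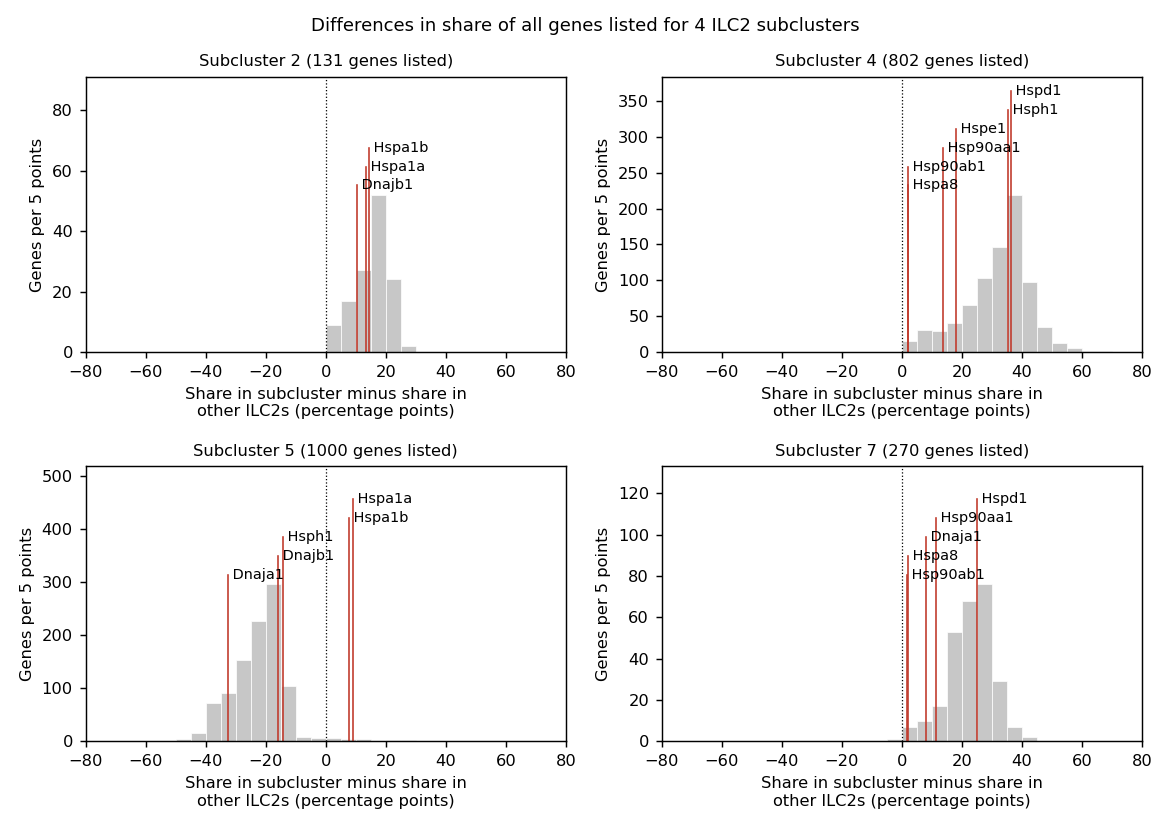
Number of genes per 5 percentage points of difference between the share in the subcluster and the share in other ILC2s, for all genes listed for subclusters 2, 4, 5 and 7, with the chaperone genes as red lines. In subcluster 5 nearly all genes lie below 0, and Hspa1a and Hspa1b lie above it at 9.1 and 7.8.

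The listings grouped the 10 genes into sets. Only 3 of the 2629 genes in the table were listed for subclusters 2 and 5 and no other, and these were Hspa1a, Hspa1b and Dnajb1. Hspa8, Hsp90aa1, Hsp90ab1 and Hspd1 were among 53 genes listed for exactly subclusters 4 and 7. Dnaja1 was among 13 genes listed for exactly 5 and 7, Hsph1 among 19 for exactly 4 and 5, and Hspe1 among 609 for 4 alone. The cells of each subcluster served as part of the comparison for every other, so these sets are not independent of one another. With Hspa1a and Hspa1b counted as 1 gene, subcluster 2 listed 2 chaperones and subcluster 5 listed 4.

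Further chaperone genes were counted from 7 lists with 93 genes in all, of which 43 were in the ILC2 table and 23 in the cell type table. The ILC2 table named 15 of 36 cytosolic partners, 3 of 11 mitochondrial genes, 12 of 17 genes of the endoplasmic reticulum, 10 of 14 of TRiC and prefoldin and 1 of 9 small heat shock proteins. In the cell type table these numbers were 8, 1, 7, 6 and 1. Subcluster 4 listed 29 of the 43, compared with 30.5% of all genes of the table. All 29 had a higher share in its cells, as had all 802 genes listed for it. Among the cytosolic partners it listed Stip1, which links HSP70 to HSP90, at 78.4% against 37.3%, Ahsa1, the activator of HSP90 ATP hydrolysis, at 77.5% against 41.4%, and Cacybp at 91.3% against 55.5%. It also listed Hspbp1, Dnajc2, Fkbp4, St13, Ptges3 and Hspa4, with differences from 26.9 to 35.7 percentage points. Of the 11 mitochondrial genes it listed Hspa9, the mitochondrial HSP70, at 77.3% against 34.0%, and its exchange factor Grpel1 at 85.5% against 49.3%.

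Of the chaperonin TRiC, which folds actin and tubulin in the cytosol, subcluster 4 listed Tcp1, Cct2, Cct3, Cct4, Cct5, Cct6a, Cct7 and Cct8, with differences from 20.5 points for Cct2 to 35.8 for Tcp1. The prefoldin subunit Pfdn6 was at 81.9% against 41.4%. Of the 17 chaperones of the endoplasmic reticulum 9 were listed there. They were Sdf2l1 at 82.4% against 31.6%, P4hb, Creld2, Canx, Pdia6, Manf, Calr, Hsp90b1, and Hspa5, the HSP70 of that compartment, at 98.9% against 86.3%.

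Subcluster 7 listed 9 of the 43, compared with 10.3% of all genes. All 9 had a higher share, and of the 270 genes listed for it 1 had a lower one. They were Hspa4l at 38.0% against 17.2%, Stip1, Hspa4, Manf, Hsp90b1, Cct2, Cct3, Cct6a and Tcp1, the last at 87.0% against 61.3%. Subcluster 5 listed 8, compared with 38.0% of all genes, and all 8 had a lower share, as had 97.8% of its listings. Among them were Unc45a, Dnajc5, Ppid, Pdia4, Dnajc10, Hspa5 and Pdia6, the last at 30.7% against 74.3%. Subcluster 2, with 4.98% of all genes, listed 2 of the 43, Hscb at 54.6% against 36.6% and Ppib at 99.1% against 92.6%, and none of the 15 cytosolic partners in the table. The genes listed for most subclusters were Hscb, Ppib, Dnajc10 and Hspa5, each for 3, and Hspb11 was the sole small heat shock protein, at 46.1% of subcluster 6 against 30.2%. None of the 4 heat shock transcription factor genes was listed for any cluster of either table.

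Genes known to rise on tissue dissociation were counted from a list of 28 genes that held no chaperone, of which 25 were in the ILC2 table. Whether their spread over the subclusters differed from that of the chaperones was not tested. Subcluster 3 listed 21 of the 25 and 0 of the 10 chaperones, with 9.01% of all genes of the table listed for it. Subcluster 2, with 4.98%, listed 1 of the 25, Dusp1, at 83.7% against 74.2%. Subcluster 4, with 30.5%, also listed 1, Dusp2. Subcluster 7, with 10.3%, listed 7, among them Nr4a1 at 89.0% against 59.7% and Btg2 at 98.0% against 86.4%. Subcluster 5, with 38.0%, listed 12, of which 10 had a lower share, with Ier2 at 44.1% against 79.8%.

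Cell cycle genes marked subcluster 4. It listed all 16 of the proliferation genes in the table, among them Stmn1 at 77.2% against 9.8% and Top2a at 71.5% against 26.2%, whereas subcluster 7 listed 1 and subcluster 5 none. The number of RNA molecules per cell is unknown, and its part in the chaperone shares of subcluster 4 was not tested. Il13, a type 2 cytokine, was also listed for 3 of the 4 subclusters that listed chaperones, at 56.5% against 32.6% in subcluster 2, 62.1% against 34.4% in subcluster 4 and 60.5% against 36.6% in subcluster 7. It was listed for 5 subclusters in all.

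**Figure D4:**
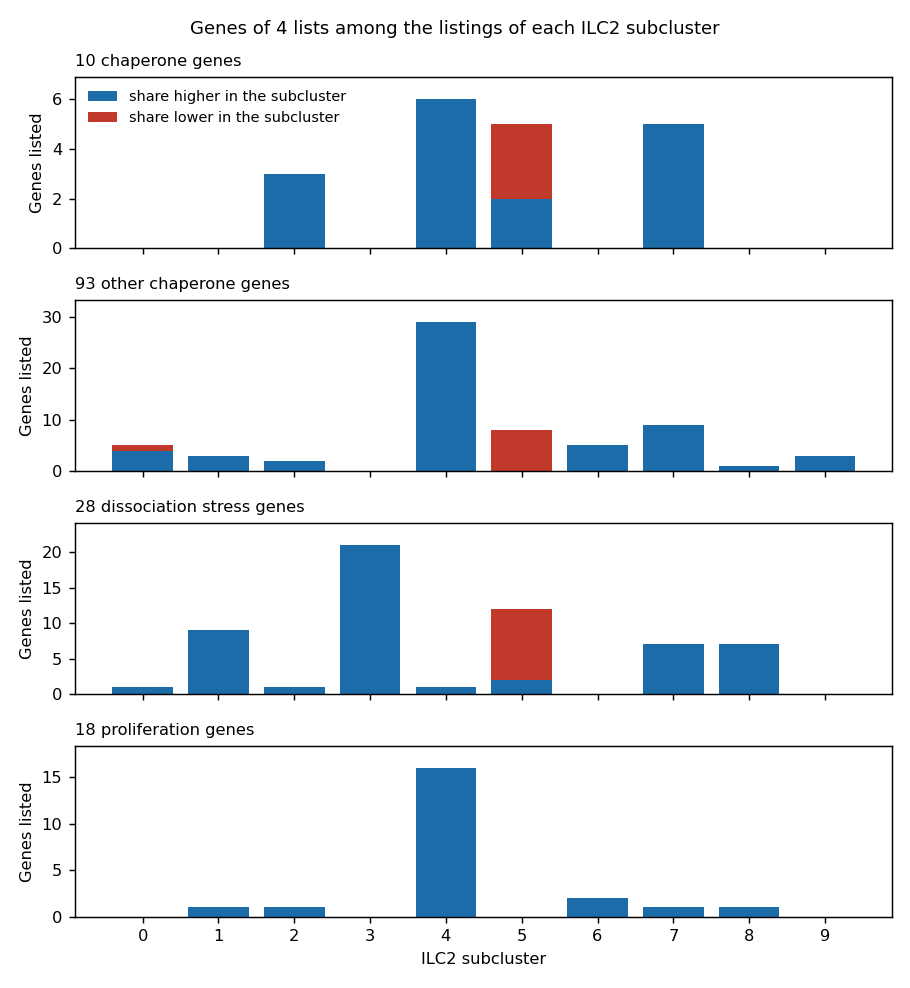
Number of genes listed for each ILC2 subcluster among the 10 chaperones, 93 further chaperone genes, 28 dissociation stress genes and 18 proliferation genes, split by whether the share of cells was higher or lower in the subcluster. Subcluster 4 lists the most chaperones and 16 proliferation genes, and subcluster 3 lists 21 dissociation stress genes and no gene of the other lists.

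Among all sorted cells, 11 of the 21 cell types listed a chaperone. Hspa8, Hsp90aa1 and Hsp90ab1 had shares of 98.9%, 92.3% and 99.0% over all sorted cells, which left no room for a difference of 10 points. The median difference of the 21 chaperone listings was 3.2 percentage points, compared with 18.4 over all 4422 listings, and 6 of 21 reached 10 points, compared with 65.5% of all listings. In the ILC2 table, which is on another scale, the medians were 9.1 and 13.3, and 9 of 19 chaperone listings reached 10 points, compared with 56.3%. The share inside was lower in 2 of the 21 chaperone listings, and in 16.3% of all. Dnaja1 was listed for no cell type. ILC2, with 43.2% of the cells, listed 8.10% of the 1679 genes of the table and none of the 10 chaperones.

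The inducible HSP70 genes were listed for 5 different cell types and shared none. These cell types listed from 8.64% (ILC1) to 23.6% (Endothelium cell) of all genes, and Hspa1a shared no cell type with any other chaperone. So few listings do not show that the pair differed. Hspa1a had a share of 49.4% in Endothelium cell, of 39.8% in Macrophage, of 33.4% in gdT_TypeIII_ITGAE, and of 23.5% in the cells of all other types. Hspa1b had a share of 31.9% in ILC1, of 29.3% in Basophil and of 28.7% in the cells of other types. These shares of Hspa1b lay within 3.2 points of one another. The difference of Hspa1a in Endothelium cell, 25.0 points, held place 319 among its 397 listed genes. Endothelium cell also listed Hspb1, a small heat shock protein, at 89.6% against 17.1%, and carried Cd34 at 90.0% against 17.1%, Pecam1 at 96.4% against 46.8% and Kit at 95.6% against 59.1%.

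Basophil listed Dnajb1 in addition to Hspa1b, with 16.4% of all genes of the table listed for it. Dnajb1 was at 57.9% in Basophil and 54.8% in other cells. The difference of Dnajb1 held place 251 and that of Hspa1b place 256 among the 275 genes listed for this cell type, where Mcpt8, a basophil protease, was at 98.2% against 12.8%. Hsph1 was listed for ILC1_ILC3 with a higher share, 54.6% against 43.6%, and for CD8_Effector with a lower one, 37.4% against 43.7%.

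Dissociation stress genes, 23 of which were in the cell type table, were listed for all 21 cell types. Their listing for the 7 that listed Hspa1a, Hspa1b, Dnajb1 or Hsph1 is thus not particular to these 7. ILC1_ILC3 listed 15 of the 23, compared with 13.4% of all genes, Basophil 13, compared with 16.4%, and gdT_TypeIII_ITGAE 12, compared with 11.7%, all with a higher share. Endothelium cell listed 6 (23.6% of all genes), ILC1 4 (8.64%), CD8_Effector 3 (5.60%) and Macrophage 2 (17.3%). Treg listed 10 (8.93%) and none of the 10 chaperones. The share was lower for 2 of the 3 genes in CD8_Effector and for 6 of the 10 in Treg. The part of dissociation in the chaperone shares was not tested.

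Hspa8, the HSP90 genes and the mitochondrial pair were listed for 4 other cell types. CD8_Naive listed 5 of the 10 chaperones and 11.8% of all genes, MMP_LMPP 4 and 24.0%, and Prolifelation cell, spelled here as in the table, 3 and 30.6%. Hspd1 had a share of 94.7% in Prolifelation cell, of 93.5% in MMP_LMPP, of 74.4% in CD8_Naive and of 72.4% in the cells of other types. Hsp90aa1 followed the same order, at 99.3%, 98.4%, 94.6% and 91.7%. Prolifelation cell and MMP_LMPP lay close together in both genes, as did CD8_Naive and the other cell types in Hspd1.

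Hspe1 had a share of 100% in MMP_LMPP, of 95.5% in CD8_Naive, of 86.0% in gdT_Naive and of 86.5% in other cells, so that its listing for gdT_Naive came with a share 0.8 points below that of all cells outside it. Hsp90ab1 was at 100% in CD8_Naive and MMP_LMPP and at 98.9% elsewhere. Hspa8 was at 100% in CD8_Naive and Prolifelation cell and at 98.8% elsewhere. All 5 chaperones of CD8_Naive had a higher share there, by 0.5 points for Hspd1 to 9.0 for Hspe1. Of the 198 genes listed for this cell type, 57.1% had a lower share.

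**Figure D5:**
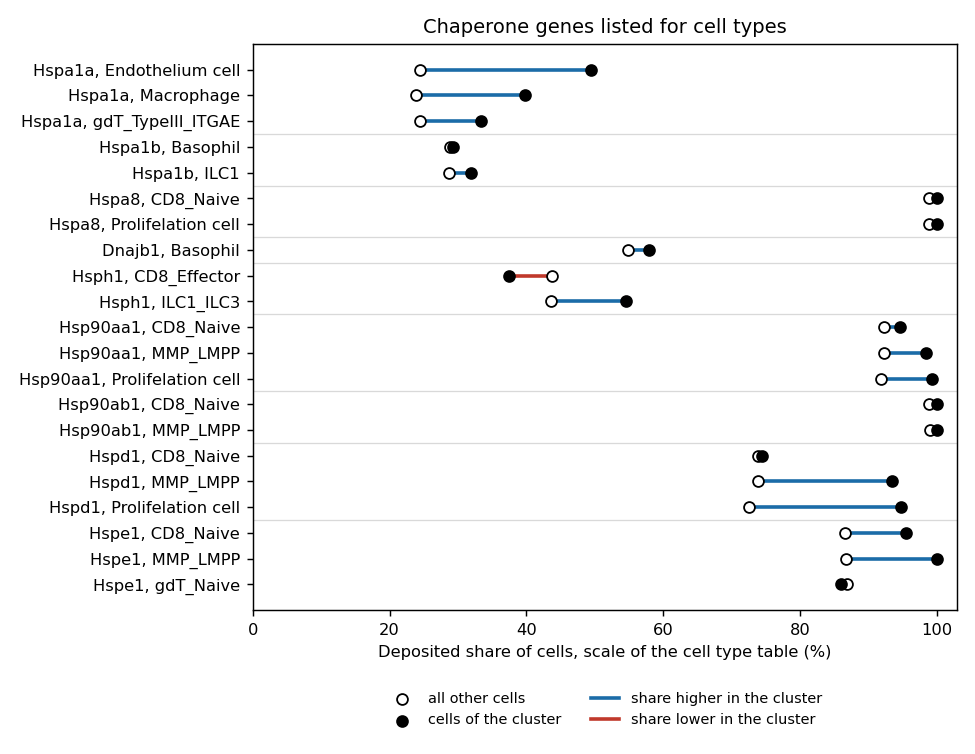
Deposited share of cells of each chaperone gene in percent, on the scale of the cell type table, for its listings among cell types, inside the cell type (filled) and in all other sorted cells (open). The longest lines are those of Hspa1a in Endothelium cell (25.0 percentage points) and Hspd1 in Prolifelation cell (22.1).

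MMP_LMPP carried the progenitor marker Cd34 at 75.6% against 17.4%, and also the B cell markers Cd79a at 76.4% against 27.8%, Cd79b and Ighm. Among the further chaperones it listed 13 of the 23 in the cell type table, compared with 24.0% of all genes. All 13 had a higher share, and of the 403 genes listed for it 4 had a lower one. The 13 were Stip1 at 89.4% against 61.6%, Hspa4, Ptges3, Fkbp4 and Cacybp among the cytosolic partners, Hspa9 at 89.4% against 63.0%, Tcp1 at 95.9% against 68.7% with Cct3, Cct5 and Cct6a, and Pdia6, Manf and Calr of the endoplasmic reticulum. CD8_Naive listed 7, compared with 11.8% of all genes, and all 7 had a lower share, as had 57.1% of its listings. They were Hspbp1 at 31.9% against 45.0%, Cacybp, Hspa9 at 55.4% against 63.3%, Tcp1, Cct5, Cct6a and Cct8. Prolifelation cell listed 14, compared with 30.6% of all genes, all with a higher share like each of its 513 listings, and all 18 proliferation genes.

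The genes most like each chaperone were named where it was listed for at least 3 cell types, by the number of shared cell types over the number in either set (Jaccard index), and then by the mean distance between the differences, which was not small for every gene. Hspd1 was most like Cct5, Cct6a and Cacybp, each with an index of 1 over 3 cell types and differences that lay on average 1.9, 1.9 and 2.0 points apart. In all, 16 genes were listed for exactly the 3 cell types that listed Hspd1 and Hsp90aa1, with these included, and 116 genes reached an index of 0.6 with either. Hsp90aa1 was most like the translation factor gene Eif4a1, Serbp1 and Snrpe, each with an index of 1 and distances of 1.1, 2.2 and 2.4 points. Hspe1 was most like Gtpbp4 (index 1, distance 16.2 points), Mif (0.75, 2.7 points) and Snu13 (0.75, 7.4 points). Hspa1a was most like App (1, 16.8 points), Scpep1 (0.75, 18.8 points) and Nav1 (0.67, 5.2 points). None of the 10 chaperones was listed for 3 ILC2 subclusters.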

How the data were processed

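Single-cell libraries were sequenced and counted by the authors with Cell Ranger on mm10 (GRCm38), and clusters and their marker genes were obtained with Seurat. Per the study's methods, doublets were gated out in the sort and cells with few genes were left out. No doublet caller could be run on the tables used here. The authors deposited 1 marker table for 21 cell types and 1 for 10 ILC2 subclusters. The values used are the fraction of cells given for a gene inside and outside a cluster, deposited to 3 decimals and given here in percent. The deposited log2 fold changes, which are above 0 in every listing, and the p-values with their adjusted values are the authors' own comparisons and were not used. The authors' filters for listing a gene are not given in the sources used here.

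Cluster sizes were solved by least squares in Python 3.11.15 with numpy 2.4.6 and pandas 2.3.3, from genes listed for at least 2 clusters, and the solution was tested on simulated data. Residuals were 0.0275 percentage points for cell types and 0.0266 for subclusters, near the rounding of 0.05, and sizes added up to 100.1% and 100.2%. Shares in clusters that did not list a gene were computed from these sizes.

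The 10 genes and all gene lists were chosen with earlier results of these data known. Every listing of the 10 genes was reported. The rule for other lists was to name at most 3 genes listed for most clusters, and every chaperone gene of the clusters that listed most of the 10. Other genes, among them Stmn1, Cd3e, Il1rl1, Cd34 and Kit, were named outside this rule. Cd28, Trdc, Gzma, Dusp1 and Dusp2 were named after their values were seen. Promoters were taken from RefSeq (GRCm38.p6), and genes and transcripts from GENCODE M21. Counts of the 10 genes, in each table and in the clusters that listed most of them, were repeated with listings of higher share only, with a difference of at least 10 percentage points, with a share inside of at least 50%, and with Hspa1a and Hspa1b as 1 gene. Totals of the other lists were repeated with listings of higher share only. With 1 library in each group and no value per library, no test was made. A missing row for a gene means that it did not meet every criterion for that cluster, not that it lacked expression. Some listed genes are not reported here.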

Additional observations from a re-analysis of the deposited data

How the results depend on the processing

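No paired analysis was possible because the tables pool the 4 libraries, of which every group had 1. Requiring a difference of at least 10 percentage points left 6 chaperone listings in the cell type table (0 for CD8_Naive, 2 for MMP_LMPP and 1 for Prolifelation cell) and 9 in the ILC2 table (0 for subcluster 5 and 2 for subcluster 7). Requiring a share inside of at least 50% left 12 listings in the ILC2 table, 0 of them for subcluster 2 and 1 for subcluster 5. Requiring a higher share inside left 2 for subcluster 5, Hspa1a and Hspa1b. Each rule only removes listings, so the counts can fall but not rise. All 93 values of cluster size recomputed under other solutions moved by at most 0.1 percentage points, as did all 76 of chaperone share, and 25 of 26 list counts stayed within 1.5 times when only higher shares were counted, the exception being the mitochondrial list of the cell type table, which fell to 1. The tables give neither depth nor cell numbers, and the counting error of small clusters such as subcluster 7 was not computed.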
